A study of Caenorhabditis elegans with 12 samples.

Results

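The balance between acetylation of histone H4 at lysine K5 (H4K5ac) and at lysine K8 (H4K8ac) was followed gene by gene in chromatin of whole adult Caenorhabditis elegans. For each gene, the log2 fold of immunoprecipitated chromatin (IP) over input was taken for H4K5ac and for H4K8ac, and the H4K8ac fold was subtracted from the H4K5ac fold. A positive difference is called a lean to H4K5ac below and a negative one a lean to H4K8ac. The word gives the sign of an estimate, not a call. The genes were those with a count in the deposited tables of both marks, 3750 of the 7553 genes in either table (66.6% of the 5632 genes listed for H4K5ac and 66.1% of the 5671 listed for H4K8ac). All 3750 passed the filter on low counts.

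The 12 libraries formed 4 groups of 3 replicates, namely H4K5ac IP, H4K5ac input, H4K8ac IP and H4K8ac input. Every worm carried the Bristol N2 genotype, the standard wild type of this nematode, had reached adulthood and had been kept at 20 °C on Escherichia coli OP50, and no group had a mutation or another treatment. Chromatin of 0.2 to 1 kb was precipitated with ab51997 for H4K5ac or ab45166 for H4K8ac, so the mark and its antibody cannot be told apart. The title of the series links histone deacetylation, fat metabolism and these residues, and the lists of fat genes and of acetylation genes are described for that reason.

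Acetylation removes the positive charge of lysines on the tail of histone H4, loosens the contact of the tail with DNA and makes binding sites for bromodomain proteins. K5 and K8 lie close together on the tail, are acetylated by partly shared enzymes, and are usually found together around the starts of transcribed genes. K5 is also acetylated on newly made histone H4 before it enters chromatin. Whole worms mix germline, muscle, nerve, gut and skin nuclei, and a mark on more cells cannot be told apart from more mark per cell.

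Counts over the 3750 genes summed to between 3721965 and 6409675 per library. The inputs of the marks differed at 0 of 3750 genes (0%) in edgeR's quasi-likelihood test at an adjusted p under 0.05. At an unadjusted p under 0.05, 180 genes differed (4.8%), and DESeq2 also called 0. The IP libraries of one mark were not alike. The SD over genes of the log2 ratio to the mean input was 0.472, 0.362 and 0.298 in H4K5ac IP replicates 1, 2 and 3, and 0.350, 0.238 and 0.296 in H4K8ac IP replicates 1, 2 and 3. Input libraries had SDs of 0.0489 to 0.0813 for H4K5ac and 0.0363 to 0.0434 for H4K8ac. H4K5ac IP replicate 1 thus stretched the contrast between enriched and poor genes most, and H4K8ac IP replicate 2 least. Of the marker genes of each tissue, 8 of 20 germline, 13 of 100 sperm, 6 of 12 muscle, 6 of 13 neuron, 5 of 12 intestine and 3 of 9 hypodermis genes were in both tables, so no tissue was without marker genes.

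**Figure D1:**
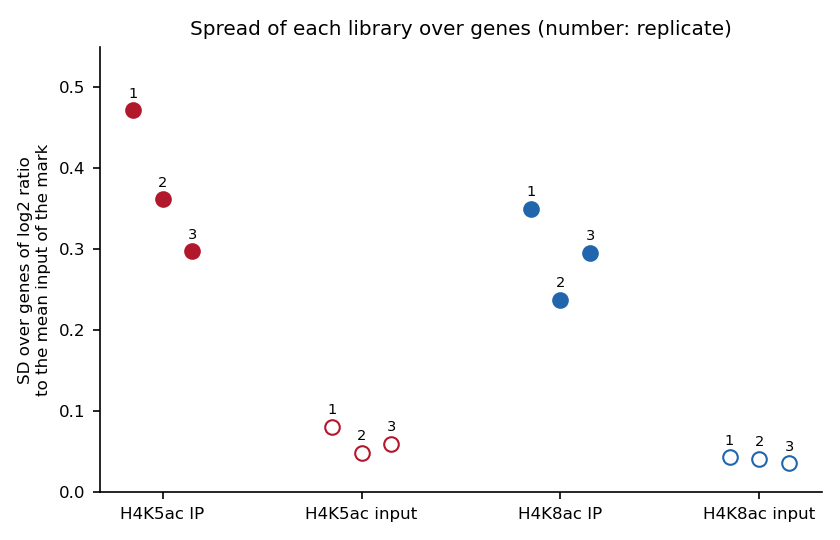
Spread over the 3750 genes of each library, as the SD of its log2 ratio to the mean input of its mark (vertical axis), with 1 point per library in 4 groups and the replicate number above each point. The 3 H4K5ac IPs lie between 0.298 and 0.472, the 3 H4K8ac IPs between 0.238 and 0.350, and all 6 inputs below 0.1.

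The folds of the marks ran in parallel across genes. The H4K5ac fold was called at 2552 genes (68.1%) with edgeR's quasi-likelihood test at an adjusted p under 0.05, higher than the typical gene at 1267 (33.8%) and lower at 1285 (34.3%). The H4K8ac fold was called at 2051 genes (54.7%), higher at 1152 (30.7%) and lower at 899 (24%). This split depended on scaling: with total counts 957 genes were higher and 1770 lower for H4K5ac, and 901 and 1393 for H4K8ac. With upper quartile scaling 1010 were higher and 1671 lower for H4K5ac, and with scaling to the least enriched genes 2356 and 0 for H4K5ac, and 2140 and 1 for H4K8ac. "Lower" here means less enriched than the typical listed gene, not without the mark. Both folds were called higher at 1007 genes and both lower at 727. Calls of opposite sign were made at 4 genes with H4K5ac higher and H4K8ac lower, and at 5 genes with H4K5ac lower and H4K8ac higher. Across genes, which are not independent replicates and share libraries, the folds had a Pearson r of 0.916 and a Spearman rho of 0.873 (3750 genes). The SD of the folds was 0.371 for H4K5ac and 0.288 for H4K8ac, a ratio of 1.29.

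R107.5 had 1302, 985 and 866 CPM (counts per 1000000 counts of the scaled library) in the H4K5ac IPs against 301, 269 and 286 CPM in their inputs, and 902, 706 and 883 CPM in the H4K8ac IPs against 298, 296 and 303 CPM in theirs. Its log2 folds were 1.88 for H4K5ac and 1.48 for H4K8ac, the highest of any gene for each mark. The cytosolic Hsp70 chaperone gene hsp-1 followed with log2 folds of 1.62 and 1.23 for H4K5ac and H4K8ac. All values of both genes in the IPs lay above those in the inputs. The ABC-F ATPase gene abcf-2 (1.59 for H4K5ac) and M04B2.10 (1.18 for H4K8ac) came next. All 4 had differences of 0.39 to 0.46 on the log2 scale. Weighted as described further on, so that both marks have the same spread, the differences were -0.02 at R107.5, 0.04 at hsp-1, 0.13 at abcf-2 and 0.06 at M04B2.10.

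**Figure D2:**
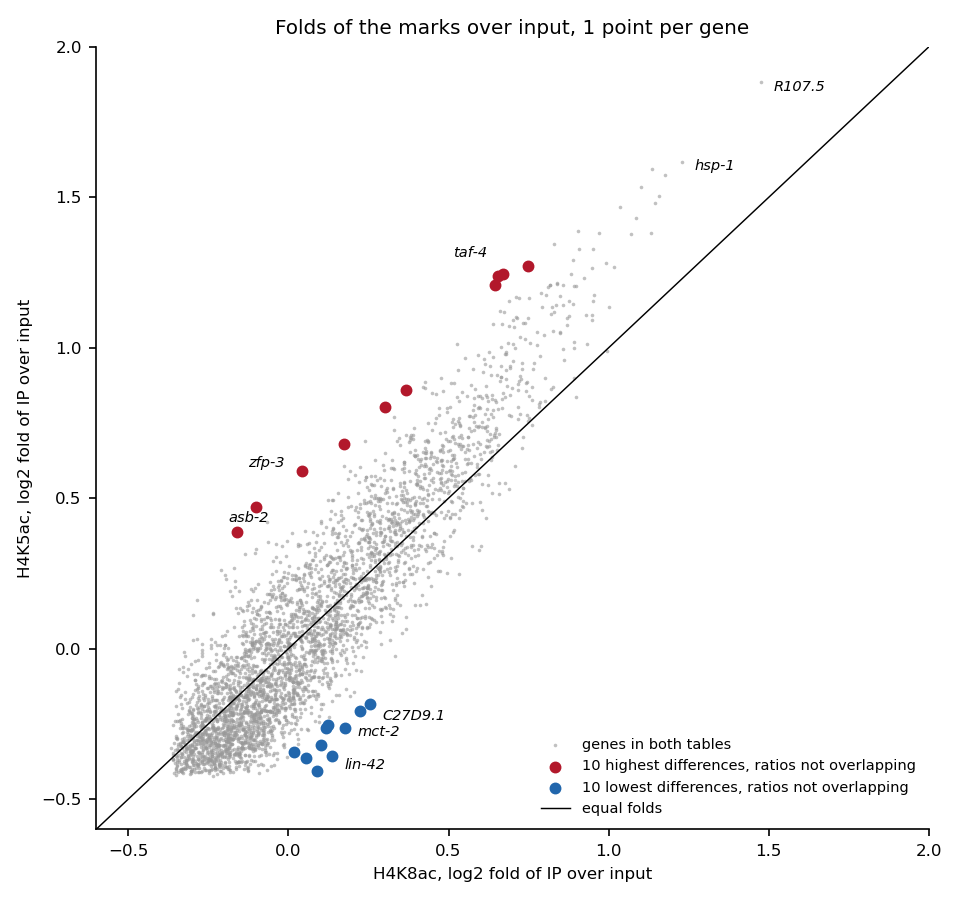
Log2 fold of IP over input for H4K5ac (vertical axis) against H4K8ac (horizontal axis), 1 point per gene in both tables, with the line of equal folds. Red and blue points are the 10 highest and 10 lowest differences among genes whose per-replicate ratios do not overlap. The cloud is steeper than the line (SD 0.371 against 0.288), so enriched genes such as hsp-1 and R107.5 lie above it.

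No gene passed the test of the difference. edgeR's quasi-likelihood test called 0 of 3750 genes (0%), and the smallest adjusted p was 0.144. The differences ran from -0.49 to 0.58 around a median of -0.01 with an SD of 0.157, against a median standard error (SE) of 0.0998. At an unadjusted p under 0.05, 549 genes (14.6%) differed, 334 toward H4K5ac (8.91%) and 215 toward H4K8ac (5.73%). The call depended on the tool and on 1 library. DESeq2 called 41 genes (1.09%), 27 toward H4K5ac (0.72%) and 14 toward H4K8ac (0.373%), and limma-voom called 0, with 602 genes at an unadjusted p under 0.05. Without H4K5ac IP replicate 3, the most compressed of the H4K5ac IPs, edgeR called 193 genes (5.15%), 149 toward H4K5ac (3.97%) and 44 toward H4K8ac (1.17%). Of the 41 DESeq2 genes, 39 were among these 193 (95.1% of the 41 and 20.2% of the 193).

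The difference moved with the strength of enrichment. With the genes divided into 5 bins of 750 by the mean fold of the marks, the median difference was -0.07 in the lowest bin, -0.06, -0.02 and 0.03 in the next ones and 0.14 in the highest. In the highest bin, 146 genes leaned to H4K5ac and 5 to H4K8ac at an unadjusted p under 0.05. In the lowest bin 2 leaned to H4K5ac and 38 to H4K8ac. The part that the unequal spread of the IP libraries has in this trend was not tested. A weighted difference, in which the H4K8ac fold was multiplied by 1.29 so that both marks had the same SD, is given beside the plain one. By construction, weighting lowers the difference of a gene whose H4K8ac fold is above 0 and raises it where that fold is below 0. It had a Spearman rho of -0.00 with the mean fold, against 0.488 for the plain difference. Both values, and the rise over the bins, follow largely by arithmetic from the SDs of the folds and are no separate results. The weighted difference kept the sign of the plain difference at 3059 genes (81.6%). It called 0 genes, with 379 at an unadjusted p under 0.05.

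The genes with the highest differences, among those whose 3 H4K5ac ratios of IP to same-numbered input all exceeded the 3 H4K8ac ratios, held parts of the transcription, splicing, proteasome and ATP synthase machinery. Such a separation occurred at 469 genes (12.5%) toward H4K5ac and at 335 (8.93%) toward H4K8ac. taf-4, for a subunit of the general transcription factor TFIID, had log2 ratios of 1.54, 1.12 and 1.00 for H4K5ac against 0.86, 0.47 and 0.66 for H4K8ac. Its difference was 0.57 ± 0.18 (SE; adjusted p = 0.231, edgeR). rsp-3, for an SR splicing factor, had ratios of 1.44, 1.16 and 0.96 for H4K5ac against 0.80, 0.55 and 0.57 for H4K8ac. rpt-6, for an ATPase of the proteasome cap, had 1.57, 1.09 and 1.07 for H4K5ac against 0.91, 0.55 and 0.75 for H4K8ac. All 3 genes were called higher for both marks. The difference of 0.56 at rsp-3 was 0.38 when weighted, and that of 0.52 at rpt-6 was 0.31. Y111B2A.12 (0.58), which lies with rsp-3 and rpt-6 within chromosome III, epg-9 (0.50), for an autophagy protein, and tub-2 (0.49), for a Tubby family protein, had folds called higher for both marks as well. At epg-9 the inputs differed by -0.15 and the IPs alone by 0.36 (H4K5ac minus H4K8ac, log2).

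A second kind of gene was enriched for H4K5ac and near the typical gene for H4K8ac. asb-2 encodes subunit b of the mitochondrial ATP synthase and lies on the X chromosome, with its H4K5ac region at chrX:4468201-4471199 (WBcel235). Its log2 ratios were 0.68, 0.24 and 0.22 for H4K5ac, all above 0, against -0.22, -0.11 and -0.14 for H4K8ac, all below 0. The difference was 0.55 ± 0.11 (SE; 95% interval 0.31 to 0.79; adjusted p = 0.144, edgeR), and 0.59 when weighted. The zinc finger gene zfp-3, also on X (region chrX:1439001-1448199), had ratios of 0.74, 0.66 and 0.34 for H4K5ac against 0.11, -0.02 and 0.04 for H4K8ac. Its H4K5ac fold of 0.59 was called higher (adjusted p = 1.57e-05, edgeR) and its H4K8ac fold of 0.04 was not (0.697). Y59A8B.24 on V (0.57) and the noncoding RNA gene C30E1.9 on X (0.51) had the same form, with H4K8ac folds of -0.10 and 0.17 that did not pass. At C30E1.9 the inputs differed by -0.19 and the IPs alone by 0.32 (H4K5ac minus H4K8ac, log2). Y59A8B.24 rests largely on replicate 1: its H4K5ac ratios were 1.04, 0.32 and 0.03. Its H4K5ac IPs had 462, 388 and 302 CPM, and their inputs 224, 310 and 295 CPM. The inputs of the marks differed there by -0.10 and the IPs alone by 0.47. H4K5ac IP replicate 1 gave the highest H4K5ac ratio at all 10 genes. DESeq2 called asb-2, zfp-3 and C30E1.9 and not the other 7.

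The 10 genes with the lowest differences were all called lower for H4K5ac, with H4K8ac folds of 0.02 to 0.25, of which those of C27D9.1 and C01B4.7 were called higher. lin-42, a Period family gene that times the larval stages, had 88.7, 105 and 121 CPM in the H4K5ac IPs against 134, 133 and 136 CPM in their inputs, and 134, 150 and 131 CPM in the H4K8ac IPs against 141, 115 and 121 CPM in theirs. Its H4K5ac fold of -0.36 was called lower (adjusted p = 0.00316, edgeR), its H4K8ac fold of 0.14 was not called (0.222), and the difference was -0.49 ± 0.13 (SE; adjusted p = 0.188, edgeR). The noncoding gene F47F6.12, with the same difference, lies 70 bp from lin-42 on chromosome II, so the same fragments may count for both. The monocarboxylate transporter family gene mct-2 (-0.44) and its neighbour C01B4.7 (-0.43) overlap by 557 bp on chromosome V and may share fragments too. The mct-2 ratios were -0.18, -0.23 and -0.42 for H4K5ac against 0.36, 0.12 and 0.02 for H4K8ac. The inputs at mct-2 and C01B4.7 differed by 0.27 and 0.30 (H4K5ac input minus H4K8ac input, log2), the highest of the 20 genes, and these values enter their differences.

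The other low genes were C27D9.1, Y46G5A.36, Y57A10A.5 and tsr-1 on chromosome II, C31H1.8 on IV, whose RefSeq symbol is oops-1, and the chemoreceptor family gene str-7 on V. C27D9.1 had H4K5ac ratios of -0.36, -0.21 and 0.03 against H4K8ac ratios of 0.28, 0.20 and 0.28, a difference of -0.44 ± 0.10 (SE; adjusted p = 0.144, edgeR). C31H1.8 shares its start window with several genes and is uncertain. DESeq2 called F47F6.12, lin-42, C27D9.1, Y46G5A.36, Y57A10A.5, tsr-1 and str-7 lower and did not call mct-2, C01B4.7 or C31H1.8.

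**Figure D3:**
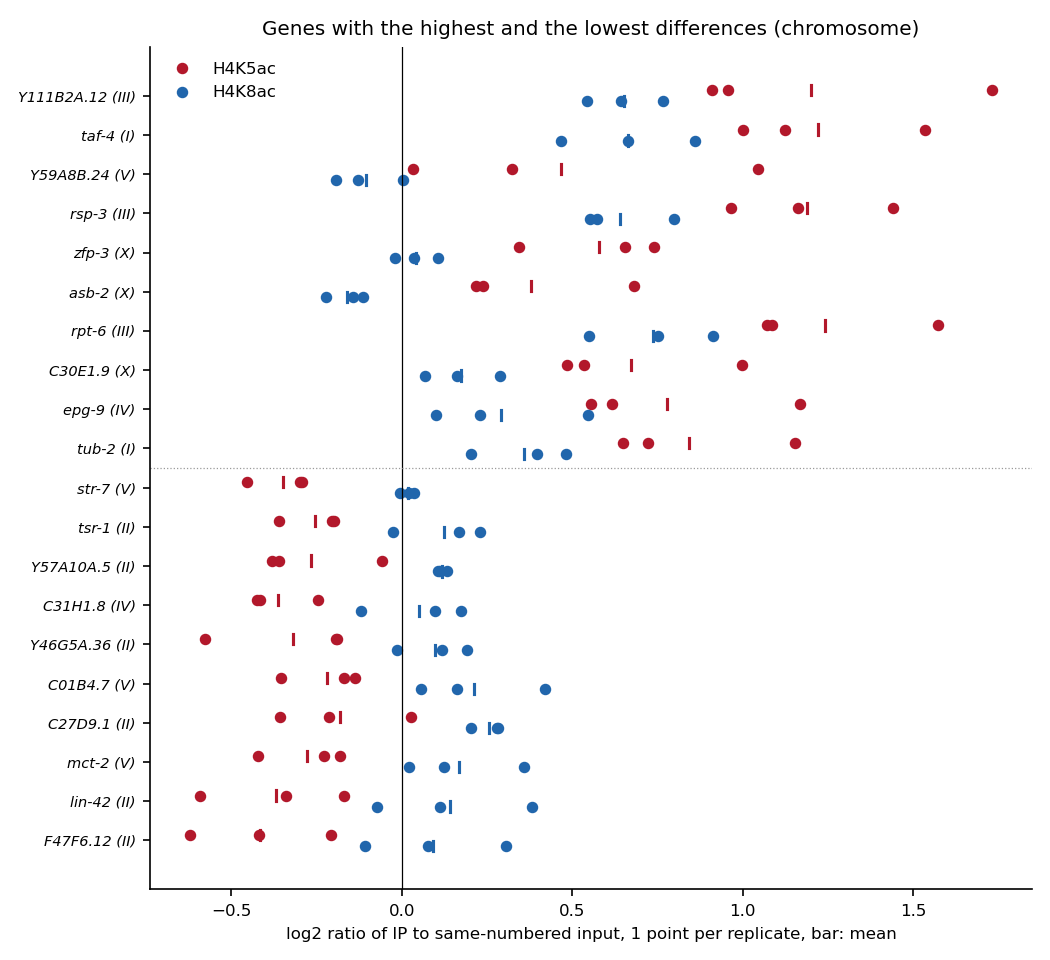
Log2 ratios of each IP to its same-numbered input at the 10 genes with the highest (top) and the 10 with the lowest differences (bottom), with H4K5ac in red above H4K8ac in blue, 1 point per replicate and a bar at the mean. The H4K5ac and H4K8ac points of a gene do not overlap, which was required for the choice. The upper genes are called taf-4, rsp-3, asb-2 and others, the lower ones lin-42, mct-2 and others.

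The gene with the smallest unadjusted p lay outside these extremes and was chosen after its values were seen. unc-16, for a JIP3 family adaptor that couples cargo to kinesin, had log2 ratios of 0.72, 0.60 and 0.51 for H4K5ac against 0.19, 0.17 and 0.16 for H4K8ac. The ratios of each mark were tight and far apart. Part of the gap lay in the inputs, which differed by -0.16, while the IPs alone differed by 0.27 (H4K5ac minus H4K8ac, log2). The difference was 0.43 ± 0.08 (SE; unadjusted p = 6.54e-05, adjusted p = 0.144, edgeR), and DESeq2 called it with an adjusted p of 0.00043. The kinesin light chain gene klc-2, of the same transport motor, had 0.51, 0.23 and 0.17 for H4K5ac against -0.01, -0.13 and 0.02 for H4K8ac. DESeq2 called klc-2 too (adjusted p = 0.0281). Its inputs differed by -0.11 and its IPs alone by 0.23. Among the cytoskeleton genes, 21 of 29 leaned to H4K5ac, 6 at an unadjusted p under 0.05, and 1 past that p leaned to H4K8ac (ifc-1, for an intermediate filament protein, -0.22). The 6 included act-4, an actin gene (0.40), and spc-1, for alpha spectrin (0.32). Their median of 0.06 turned to -0.03 when weighted.

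Gene lists by function were compared by the median difference of their members, beside -0.01 for all 3750 genes, of which 48.4% lay above 0. The count of members past the adjusted threshold was 0 in each list, so the counts below are at an unadjusted p under 0.05 (8.91% of all genes toward H4K5ac and 5.73% toward H4K8ac). The lists with the highest medians were made of genes for protein synthesis and respiration. All 6 measured ribosomal protein genes leaned to H4K5ac, 4 of them past that p, with a median of 0.30. rla-0 and rpl-19 had log2 folds of 1.22 and 0.78 for H4K5ac, against 0.84 and 0.47 for H4K8ac. By library, the median ribosomal protein gene had ratios of 0.96, 0.82 and 0.66 for H4K5ac against 0.70, 0.41 and 0.56 for H4K8ac. When weighted, the median of the 6 was 0.14, with 5 above 0 and rla-0 at 0.13, and DESeq2 called none of them. They are 6 of the 78 ribosomal protein genes in the RefSeq table. Of 11 mitochondrial ribosomal protein genes 8 leaned to H4K5ac, 5 past that p, with a median of 0.21, or 0.17 when weighted, among them mrpl-12 and mrpl-40 (0.31 and 0.39). These medians, and that of the respiratory genes below, stayed above 0 in all 24 other settings tried.

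Genes of the respiratory chain and the ATP synthase had a median of 0.26, with 14 of 16 above 0. Past an unadjusted p of 0.05 were 8 toward H4K5ac and 1 toward H4K8ac. The ATP synthase genes asb-2, atp-1 (0.37) and atp-2 (0.40), the succinate dehydrogenase gene sdha-1 (0.27), the complex III gene ucr-2.1 (0.23), the complex I gene nduf-7 (0.28) and the cytochrome oxidase genes cox-4 (0.39) and cox-10 (0.32, for an assembly factor that makes its heme) were the 8. At atp-2 the log2 ratios were 1.47, 1.21 and 1.17 for H4K5ac against 1.05, 0.74 and 0.86 for H4K8ac. At ucr-2.1 they were 0.27, 0.28 and 0.30 for H4K5ac against 0.05, 0.04 and 0.08 for H4K8ac, a small difference that the replicates of both marks gave closely. The member toward H4K8ac, clk-2 (-0.30), entered by its name and encodes a DNA damage checkpoint protein, not a respiratory one. The median was 0.26 also for the 12 genes not on X. When weighted, the median was 0.14 over all 16 genes and 0.11 over those 12. Without H4K5ac IP replicate 3, 6 of the 16 passed the adjusted threshold toward H4K5ac, beside 149 of all 3750 genes (3.97%).

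Vesicle traffic, splicing, protein folding and ubiquitin genes leaned the same way. Of 59 small GTPase and vesicle traffic genes, 47 were above 0, with a median of 0.14, 13 past an unadjusted p of 0.05 toward H4K5ac and 1 toward H4K8ac. They included the proton pump genes vha-15 (0.36) and vha-12 (0.31), the early endosome GTPase gene rab-5 (0.33), the dynamin gene dyn-1 (0.27) and the ESCRT gene vps-2 (0.47). vha-15 had 377, 362 and 338 CPM in the H4K5ac IPs against 288, 288 and 274 CPM in their inputs. In the H4K8ac IPs it had 298, 269 and 287 CPM, against 290, 287 and 289 CPM in their inputs. H4K5ac was thus above input in every replicate, while H4K8ac did not separate from it. Of 41 splicing and RNA processing genes, 34 leaned to H4K5ac (median 0.13, 8 past that p), led by rsp-3, smu-2 (0.49) and hrp-1 (0.38), for a splicing cofactor and an hnRNP protein. exos-8, of the RNA degrading exosome, was the 1 past it toward H4K8ac (-0.20).

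Chaperones (median 0.12, 15 of 18 above 0) and ubiquitin pathway genes (0.12, 14 of 19 above 0) had 3 and 4 members past that p, all toward H4K5ac. They included dnj-19, a DnaJ gene (0.46), cct-8, of the chaperonin (0.45), the conjugating enzyme gene ubc-8 (0.41) and the ubiquitin fusion gene ubq-2 (0.37). The weighted medians were 0.02 for splicing, 0.03 for chaperones, 0.02 for ubiquitin and 0.07 for vesicle traffic genes. Of the 41 splicing genes, 32 were called higher and 4 lower for H4K5ac, beside 33.8% and 34.3% of all genes. For H4K8ac 29 were called higher and 4 lower, beside 30.7% and 24% of all genes. Translation factors and tRNA synthetases (0.10), nuclear pore genes (0.07) and genes of glycolysis, the TCA cycle and amino acids (0.08) turned to -0.05, -0.02 and -0.04 when weighted, and the translation and nuclear pore medians were negative also with quantile normalization. The 4 measured proteasome genes, rpt-6 among them, had a median of 0.02 that turned negative in 5 of 24 settings.

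**Figure D4:**
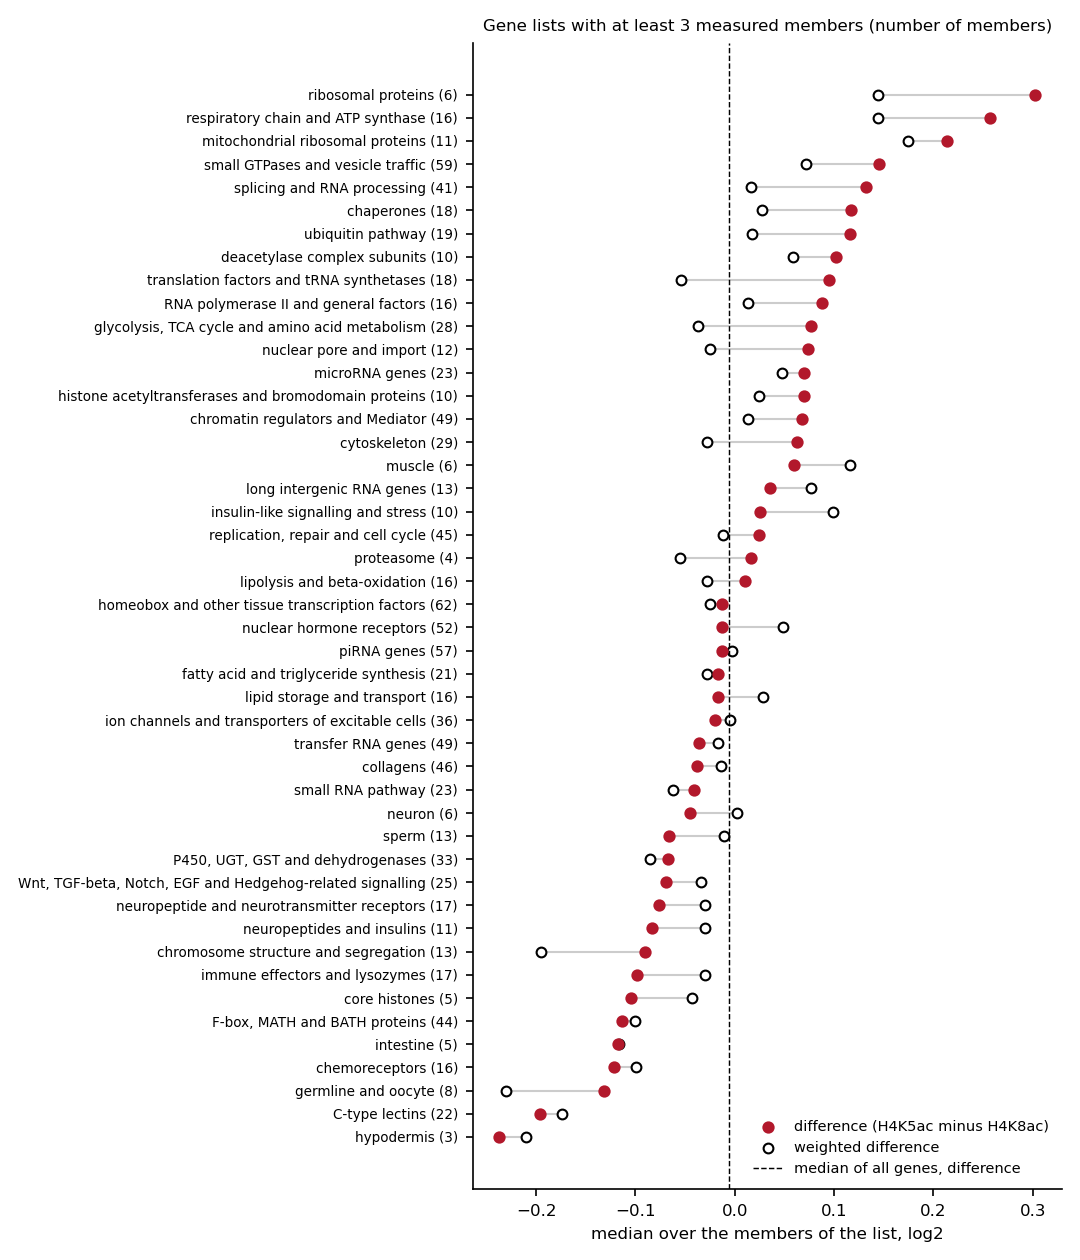
Median difference (H4K5ac minus H4K8ac, log2, horizontal axis) of each gene list with at least 3 measured members, with the number of members beside its name; red points are the plain difference, open points the weighted one and the dashed line the median of all genes. Ribosomal (0.30) and respiratory genes (0.26) are at the top, and C-type lectins (-0.20) and hypodermis genes (-0.24) at the bottom.

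The lists that leaned to H4K8ac included families of secreted, receptor and adaptor proteins that are expanded in worms, and germline genes. All 22 measured C-type lectin genes, for sugar-binding proteins many of which respond to microbes, had a negative difference, with a median of -0.20 and 7 past an unadjusted p of 0.05. Their median log2 fold was -0.32 for H4K5ac and -0.11 for H4K8ac. By library, the median lectin gene had ratios of -0.41, -0.28 and -0.18 for H4K5ac against -0.22, 0.01 and -0.08 for H4K8ac. These library medians overlap between the marks. The 3 ratios of each mark separated toward H4K8ac at 4 of the 22 genes, beside 8.93% of all genes. For H4K5ac 19 of the 22 were called lower and 1 higher, beside 34.3% lower and 33.8% higher of all genes. For H4K8ac 5 were called lower and 1 higher, beside 24% lower and 30.7% higher of all genes, so the lower calls for H4K8ac were near the background. clec-67 had 206, 211 and 206 CPM in the H4K5ac IPs against 266, 256 and 255 CPM in their inputs, and 231, 258 and 244 CPM in the H4K8ac IPs against 245, 235 and 238 CPM in theirs. H4K5ac IP thus lay below input in each replicate, and H4K8ac IP overlapped it. The difference was -0.35 ± 0.08 (SE; adjusted p = 0.158, edgeR), and DESeq2 called it (adjusted p = 0.0099). clec-72 (-0.32), clec-79 (-0.25) and clec-119 (-0.27) had the same sign, but the ratios of the marks overlapped at clec-79 and clec-119. Lectin genes form a family with similar members, so reads may be divided between them.

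F-box, MATH and BATH genes, many of which encode adaptors of ubiquitin ligases, leaned to H4K8ac in 37 of 44 cases, with a median of -0.11 and 8 past an unadjusted p of 0.05 toward H4K8ac. All 8 lay on chromosome II, where 63 of 599 genes (10.5%) were past that p toward H4K8ac, beside 5.73% of all genes. The lean of these families was not separated from that of chromosome II. math-38 had log2 ratios of -0.39, -0.27 and -0.16 for H4K5ac against -0.06, 0.20 and 0.04 for H4K8ac, and fbxa-169 and fbxb-39 had differences of -0.29 and -0.31. bath-40, on chromosome I, was the 1 past that p toward H4K5ac (0.31), and both its folds (0.99 for H4K5ac and 0.68 for H4K8ac) were called higher. Chemoreceptor genes (16 measured, median -0.12, 3 above 0) and immune effector and lysozyme genes (17, -0.10, 4 above 0) had 2 members each past that p, all toward H4K8ac. The medians of these 4 lists stayed negative in all 24 other settings, and weighted they were -0.17, -0.10, -0.10 and -0.03.

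Germline and oocyte genes had positive median folds, 0.20 for H4K5ac and 0.32 for H4K8ac. Their median difference was -0.13, and 6 of 8 lay below 0. When weighted the median was -0.23, and all 8 lay below 0. rme-2, for the yolk receptor of oocytes, had 281, 275 and 268 CPM in the H4K5ac IPs against 290, 267 and 251 CPM in their inputs, and 326, 305 and 327 CPM in the H4K8ac IPs against 260, 256 and 254 CPM in theirs. Only H4K8ac lay above its input in every replicate, and the difference was -0.29 ± 0.08 (SE; adjusted p = 0.21, edgeR). syp-1, for a synaptonemal complex protein, had -0.23. The list of chromosome structure and segregation genes, which also holds syp-1, had a median of -0.09, or -0.19 when weighted, and 10 of 13 leaned to H4K8ac, among them hcp-1 of the holocentric kinetochore (-0.19). Core histone genes (5 measured) had a median of -0.10 with 4 leaning to H4K8ac, such as his-32 (-0.21), but near-identical copies make these counts uncertain.

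Intestinal markers (5 measured, none above 0, median -0.12) included the ferritin gene ftn-1 (-0.19), and hypodermal markers (3 measured, 1 above 0, median -0.24) were the collagen gene col-10 (-0.28), the GATA factor gene elt-1 (-0.24) and the nuclear receptor gene nhr-23 (0.11). All 6 muscle markers leaned to H4K5ac, with a median of 0.06. Neuron (6) and sperm (13) markers had medians of -0.05 and -0.07, and both turned positive under scaling to the least enriched genes. The neuron median was positive also when weighted, without H4K5ac IP replicate 1 and with the IPs compared directly, and the sperm median without H4K8ac IP replicate 2. What part tissue makeup has in these values was not tested.

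Fat genes were divided between the marks. The median was -0.02 over 21 genes that build fatty acids and triglycerides, 0.01 over 16 genes of lipolysis and beta-oxidation, and -0.02 over 16 genes of lipid storage and transport. These signs turned in 3, 5 and 7 of the 24 other settings, among them scaling to the least enriched genes for synthesis, total count scaling for lipolysis and the weighted difference for storage. The pair of genes for ATP-citrate lyase, which makes acetyl-CoA for fat synthesis and histone acetylation, leaned in opposite directions. acly-1 on X had log2 ratios of 0.25, 0.18 and 0.07 for H4K5ac against -0.01, -0.09 and 0.03 for H4K8ac, a difference of 0.20. acly-2 on V had 0.13, 0.36 and 0.27 for H4K5ac against 0.55, 0.48 and 0.56 for H4K8ac, a difference of -0.28. At both genes the replicates of the marks did not overlap, and at neither did the difference pass the adjusted threshold (adjusted p = 0.328 and 0.278, edgeR).

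Among the other synthesis genes, the fat regulators nhr-80 (0.19) and nhr-49 (0.20) leaned to H4K5ac and hpo-8 (-0.25), for a dehydratase of fatty acid elongation, to H4K8ac. The other 16 lay between -0.16 and 0.16, the fatty acid synthase gene fasn-1 and the desaturase genes fat-1, fat-2 and fat-4 among them. For fat breakdown, hosl-1, for a hormone-sensitive lipase, had 387, 362 and 350.4 CPM in the H4K5ac IPs against 299, 307 and 293 CPM in their inputs. In the H4K8ac IPs it had 307, 284 and 307 CPM, against 314, 305 and 310 CPM in their inputs. Its H4K5ac IPs were all above input and its H4K8ac IPs did not exceed it in the same replicate. The difference was 0.34 ± 0.08 (SE; adjusted p = 0.158, edgeR), and DESeq2 called it (adjusted p = 0.0138). The acyl-CoA dehydrogenase genes acdh-7 (0.21) and acdh-8 (-0.26) had opposite signs. Among storage and transport genes, the fatty acid binding protein gene lbp-9 had the highest difference (0.31), which turned to -0.06 when the IPs were quantile normalized, and after rme-2 the yolk protein gene vit-1 the lowest (-0.18).

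Genes that write, read and erase acetylation had small differences as groups. All 10 deacetylase complex genes had a positive difference, with a median of 0.10, in a range of 0.04 to 0.18, and none past an unadjusted p of 0.05. When weighted, the median was 0.06 and 7 of 10 were above 0. saeg-1 had 0.18, and rba-1, for a histone-binding subunit, had 0.14, which turned to -0.03 when weighted. sir-2.2, for a mitochondrial sirtuin, was the 1 deacetylase gene measured (0.18). Among acetyltransferase and bromodomain genes 7 of 10 were above 0, with a median of 0.07, or 0.02 and 6 of 10 when weighted. hat-1, whose yeast and mammalian counterparts acetylate newly made histone H4, had log2 ratios of 0.84, 0.74 and 0.53 for H4K5ac against 0.49, 0.23 and 0.42 for H4K8ac, a difference of 0.33. elpc-3, for the acetyltransferase subunit of Elongator, had -0.00, 0.05 and 0.10 for H4K5ac against 0.44, 0.27 and 0.34 for H4K8ac, a difference of -0.30. The H4K5ac fold of elpc-3 was not called (adjusted p = 0.493, edgeR) and its H4K8ac fold of 0.35 was (0.000191). The BET bromodomain gene bet-1 had 0.22, and bra-1, which the list holds by name, had 0.19.

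Among other regulators of transcription, chromatin regulator and Mediator genes (33 of 49 above 0, median 0.07) had 8 members past an unadjusted p of 0.05 toward H4K5ac and 3 toward H4K8ac. The 8 included lin-54, of the DREAM complex (0.52), swsn-3, of the SWI/SNF complex (0.41), and dot-1.1, for an H3 methyltransferase (0.27). The 3 were the elongation factor gene spt-4 (-0.18) and, held in the list by name, ent-3 (-0.24) and F33G12.2 (-0.23). RNA polymerase II and general factor genes (12 of 16 above 0, median 0.09) had 5 past an unadjusted p of 0.05, all toward H4K5ac. Both weighted medians were 0.01. Homeobox and other tissue factors (62 genes) and nuclear hormone receptors (52) both had a median of -0.01, which turned in 4 and 5 of 24 settings. Of the tissue factors, 29 were above 0, with 6 past that p toward H4K5ac, such as cebp-1 (0.42) and ceh-44 (0.35), and 4 toward H4K8ac, such as ztf-28 (-0.30) and elt-1. Of the receptors, 24 were above 0, with 5 past it toward H4K5ac, such as nhr-1 (0.25), and 1, nhr-65 (-0.17), toward H4K8ac. The small RNA list (23 genes, median -0.04, positive under scaling to the least enriched genes) held alg-1, the Argonaute of microRNAs, at 0.44 and tofu-2, of piRNA formation, at -0.35, and DESeq2 called both. Of 23 microRNA genes (median 0.07, or 0.05 when weighted) 6 were past an unadjusted p of 0.05, all toward H4K5ac. Of these, mir-34 (0.36), mir-84 (0.28) and mir-81 (0.23) lie on X. The rest, mir-2 (0.20), mir-51 (0.24) and mir-8205 (0.23), lie on autosomes. The weighted median of the microRNA genes not on X was 0.005.

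The chromosomes differed in their share of genes that leaned to either mark. The X chromosome of this worm is under dosage compensation in hermaphrodites and is largely silent in germ cells, which is given as background only. Of 575 genes on X, 374 (65%) leaned to H4K5ac, against 1442 of 3175 autosomal genes (45.4%). The median difference was 0.06 on X and -0.02 on the autosomes, and 0.09 against -0.03 when weighted. The median on X stayed above 0 in all 24 other settings, and that of the autosomes turned positive under scaling to the least enriched genes. At an unadjusted p under 0.05, 115 X genes leaned to H4K5ac and 14 to H4K8ac, against 219 and 201 autosomal genes. X held 15.3% of the genes tested and 34.4% of those past that p toward H4K5ac. DESeq2 called 15 X genes toward H4K5ac and 0 toward H4K8ac, of 27 and 14 over all genes. Without H4K5ac IP replicate 3, edgeR called 45 and 0 on X, of 149 and 44 over all genes.

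The median of X lay below the typical gene in every IP. The median X gene had log2 ratios of -0.08, -0.07 and -0.10 in the 3 H4K5ac IPs against -0.16, -0.13 and -0.12 in the 3 H4K8ac IPs. Relative to the autosomal median of the same library, X stood at -0.07, -0.08 and -0.12 for H4K5ac and at -0.19, -0.18 and -0.14 for H4K8ac, so the libraries of the marks did not overlap. The median of X was above the autosomal one in the difference while its folds were below, unlike the trend with enrichment described above. What part the spread of the IP libraries has in the lean of X was not tested. Genes of energy metabolism were among the X genes that leaned to H4K5ac. The isocitrate dehydrogenase gene idhb-1 had 0.38, 0.20 and -0.02 for H4K5ac against -0.16, -0.18 and -0.21 for H4K8ac. The phosphofructokinase gene pfk-1.1 (0.27) and the propionyl-CoA carboxylase gene pccb-1 (0.32) also leaned to H4K5ac. In the same list, cth-1 on V (-0.34), for cystathionine gamma-lyase, and sucg-1 on IV (-0.27), for a succinyl-CoA ligase subunit, leaned to H4K8ac, and the median was 0.08 with and -0.03 without its 11 X genes. The glutamate receptor gene glr-6 (0.45) is X-linked as well, but the median of its list had the other sign. Of 17 neuropeptide and neurotransmitter receptor genes, 4 were above 0, with a median of -0.08. Past an unadjusted p of 0.05 were 2 toward H4K5ac, glr-6 among them, and 0 toward H4K8ac. Of 11 neuropeptide and insulin genes, 2 were above 0 (median -0.08), with 0 past that p toward H4K5ac and 2 toward H4K8ac. Both medians were -0.03 when weighted and stayed negative in all 24 other settings.

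Among the autosomes, as scaled here, chromosome II had the lowest median, -0.05, with 30 of 599 genes past an unadjusted p of 0.05 toward H4K5ac and 63 toward H4K8ac. DESeq2 called 8 of the 599 genes on II toward H4K8ac, beside 14 of all 3750 (0.373%). It called 2 on II toward H4K5ac, beside 27 of all (0.72%). Chromosome V followed at -0.04, IV at -0.02, III at 0.00 and I at 0.02. No test of one chromosome against another was made.

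**Figure D5:**
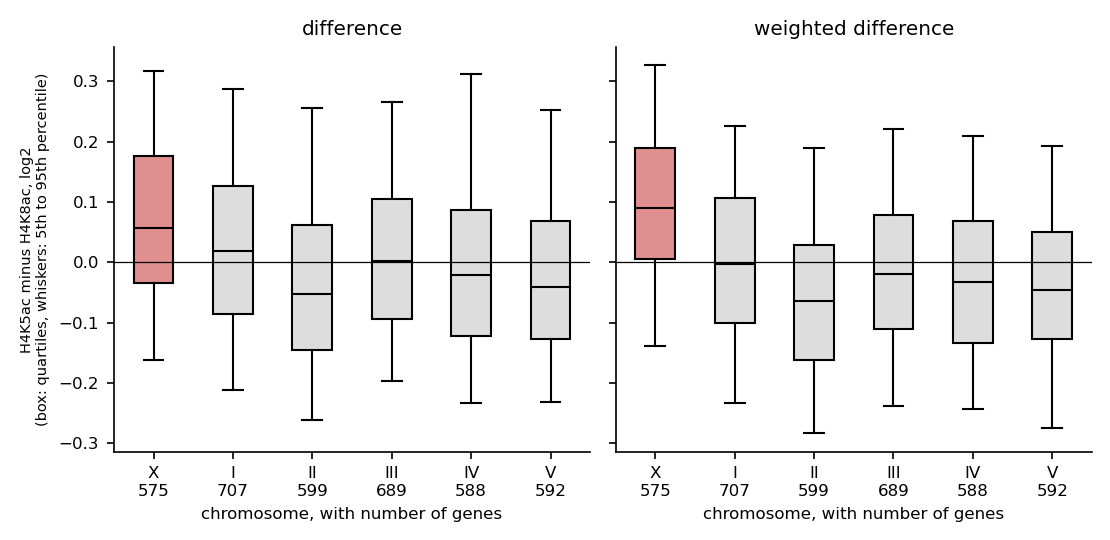
Difference (left) and weighted difference (right) between H4K5ac and H4K8ac, in log2, by chromosome, with boxes at the quartiles, whiskers at the 5th and 95th percentiles over genes and the number of genes under each name. X lies highest in both panels (medians 0.06 and 0.09), and II lowest (-0.05 and -0.06).

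The deposited regions bore on the same contrast from the same libraries, so they are no independent evidence. The nearest H4K5ac and H4K8ac regions of a gene overlapped at 3584 genes (95.6%), with median widths of 4599 bp for H4K5ac and 4999 bp for H4K8ac. The H4K5ac region was the wider one at 909 of these genes, the H4K8ac region at 1660, and the widths were equal at 1015. In the 750 genes with the highest difference, where the regions overlapped, the median widths were 5999 bp for H4K5ac and 5899 bp for H4K8ac. In the 750 with the lowest difference they were 3199 bp for H4K5ac and 4599 bp for H4K8ac. Across these genes the log2 ratio of widths had a Spearman rho of 0.269 with the difference.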

How the data were processed

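H4K5ac and H4K8ac were profiled by chromatin immunoprecipitation and paired-end sequencing, per the labels' protocols. The tools in the submitters' processing notes are bcl2fastq 2.17, Trimmomatic 0.33, Bowtie 1.1.2 and MACS2 2.1.0. Those notes list WBcel235 and hg38 as builds and give no roles. The deposited files hold 1 estimated count per gene and library, not normalized, the same on each region of the gene, for genes annotated to a listed region. The tool that counted and whether regions were called on pooled samples are not given in the sources used here. Only genes near a listed region are present, and scaling sets the fold of a typical one among them near 0. Region coordinates are the authors', on chromosome accessions of WBcel235. Gene names and positions come from a RefSeq table of that build, which 3737 of 3750 genes matched.

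Estimated counts were rounded, scaled by TMM and fitted with edgeR 4.0.16 (R 4.3.3, limma 3.58.1), with 1 mean per group over 12 libraries. The contrast was (H4K5ac IP minus H4K5ac input) minus (H4K8ac IP minus H4K8ac input). Benjamini-Hochberg adjustment ran over 3750 genes at a threshold of 0.05. Ratios by replicate set each IP against the input of the same number. Deviations of same-numbered IP and input had r of 0.29, 0.11 and 0.23 for H4K5ac (numbers 1 to 3) and -0.26, -0.15 and 0.073 for H4K8ac. The number 1 IPs of the marks, which are no IP and input pair, had a higher r of 0.49. The number may thus not mark a pair in either mark. In simulated data of this contrast over 3750 genes, 29% of 100 genes changed by 0.3 and 87% of 100 genes changed by 0.5 (log2) were recovered, with dispersions estimated for IPs and inputs apart. The simulated noise was drawn for each gene independently, without the stretch that the genes of a real IP library share. These shares may therefore not hold for the real data. Members and lists were chosen with earlier results of these data known. The rule for named genes took, among those past the threshold, the 10 highest and 10 lowest differences whose ratios did not overlap, the lowest p of each list on each side, the members of the fat and acetylation lists and the 3 highest folds of each mark. As no gene passed, the condition on the threshold was dropped after the values were seen, and a few more list members were named after their values were seen. Lists were taken by gene name, so some members may not share the function. DESeq2 1.42.0 and limma-voom, other scalings and filters, blocks, left-out libraries, a weighted difference, the IPs alone and isolated genes were alternatives. Labels do not say whether replicates were separate cultures: the p-values then cover only variation among these libraries, possibly technical.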

Additional observations from a re-analysis of the deposited data

Results flagged for a closer look

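At 14 of the genes named above, all 3 ratios of one mark lay above 0 and all 3 of the other below 0. The difference itself was tested with edgeR at each and did not pass the adjusted threshold. H4K5ac was the mark above 0 at asb-2 (difference 0.548), smu-2 (0.488), alg-1 (0.443), hosl-1 (0.339), pfk-1.1 (0.271), dot-1.1 (0.265) and mir-81 (0.228). H4K8ac was the mark above 0 at mct-2 (-0.439), C01B4.7 (-0.43), Y57A10A.5 (-0.381), ztf-28 (-0.303), hpo-8 (-0.254), F33G12.2 (-0.231) and spt-4 (-0.18). Of all 3750 genes, 38 (1.01%) had every H4K5ac ratio above 0 and every H4K8ac ratio below, and 39 (1.04%) the reverse. The sign of a ratio depends on the scaling, which sets where 0 lies.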

How the results depend on the processing

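The count of genes with a difference between the marks was 0 in edgeR's test. It was 41 with DESeq2, 466 when the IPs were compared directly without inputs (12.4%; 312 toward H4K5ac, 154 toward H4K8ac), and 4 with IPs and inputs quantile normalized apart, a setting chosen after seeing the data. Leaving out 1 library gave 0 to 193. The 193 came without H4K5ac IP replicate 3, and 7 came without H4K5ac IP replicate 1. The count stayed 0 under the other scalings and filters, limma-voom, the weighted difference and the 300 genes with no other gene boundary within 4 kb of their start. Neighbours' strands were not known, so both their ends were used. With a replicate block the count was 0, and 0 with a block within each mark. Over all groups, samples of the same number had correlated deviations (r over 0.1) in 6 of 18 pairs, with r of -0.26 to 0.49, so the numbers do not pair all 4 groups. The block moved no count of calls of either mark over input by over 1.5 times. H4K5ac over input gave 2262 to 2631 calls and H4K8ac over input 1650 to 2350 with 1 library left out, and the inputs 0. The split of those calls depended on scaling: total counts gave 957 higher and 1770 lower genes for H4K5ac, and 901 and 1393 for H4K8ac, upper quartile scaling gave 1010 and 1671 for H4K5ac, and scaling to the least enriched genes 2356 and 0 for H4K5ac, and 2140 and 1 for H4K8ac. Of 112 genes, 3 changed sign: R107.5 (-0.0188) and rba-1 (-0.029) when weighted, and lbp-9 (-0.055) when quantile normalized. The cause was not tested. Replicate IPs of a mark differed by more than counting error. Whether replicate spread or depth limits these differences was not tested.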

Other observations

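Membership of the tables differed between functions. A gene outside a table is not shown to lack the mark, and no test was made. The counts for each mark went by deposited names only, while genes in both tables were matched by RefSeq symbol too. They can therefore be too low, and not equally for the marks: 12 nuclear pore genes were counted in both tables but 11 for H4K8ac. Of 264 C-type lectin genes in the RefSeq table, 31 were listed for H4K5ac and 52 for H4K8ac, beside 5632 and 5671 genes in all. Transfer RNA genes (89 listed for H4K5ac and 112 for H4K8ac), chemoreceptors (32 and 44), genes of the F-box, MATH or BATH families (59 and 70) and sperm genes (15 and 22) were also listed more often for H4K8ac. Chaperones (30 for H4K5ac and 21 for H4K8ac), vesicle traffic genes (83 and 71) and muscle markers (9 and 6) were listed more often for H4K5ac. Table membership did not follow the lean of the difference in every list. Chromosome structure genes, with a negative median difference, had 27 listed for H4K5ac and 19 for H4K8ac, core histone genes 10 and 8, and microRNA genes, with a positive median, 32 and 38.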
